A study of Homo sapiens with 8 samples.

Results

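The transcripts followed here are those of 9 genes, out of 26830 gene symbols in the deposited table, that encode plasminogen activators, the urokinase receptor and members of the serpin family of protease inhibitors: PLAU, PLAT, PLAUR, SERPINB2, SERPINE2, SERPINB1, SERPINB6, SERPINB8 and SERPINB9. They were picked by name, with earlier results of the same data known; the rise of SERPINB2 in MOLM-13 cells was among those results, so that gene's MOLM-13 values are given as a description with no test, and the adjusted p-values of the other genes do not allow for the choice. All 9 rows were present in the table. The libraries were poly(A) RNA sequencing of 2 established human acute myeloid leukaemia lines, NOMO-1 and MOLM-13. The groups were NOMO-1 with shALKBH5-#1 (replicates 2 and 3), NOMO-1 with shNS (replicates 1 and 3), MOLM-13 with shALKBH5-#1 (replicates 1 and 3) and MOLM-13 with shNS (replicates 1 and 3), 8 libraries in all. shALKBH5-#1 is a single short hairpin RNA against ALKBH5, the enzyme that removes the methyl mark N6-methyladenosine (m6A) from RNA, and shNS is the control hairpin; every group was infected with a lentivirus and selected with puromycin, and no label speaks of single clones. The comparison asks how these transcripts differed when ALKBH5 was depleted, in each line, and whether the lines differed in that.

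Plasminogen is an inactive plasma protease that is cut to plasmin by urokinase (uPA, from PLAU) or tissue plasminogen activator (tPA, from PLAT); plasmin dissolves fibrin and helps degrade extracellular matrix. Urokinase works at the cell surface when it is held by its receptor uPAR (from PLAUR), which is carried by monocytes, neutrophils and many myeloid leukaemia cells. Serpins are suicide inhibitors: the protease cuts a reactive loop and stays trapped in a covalent complex. SERPINB2 (PAI-2) and SERPINE2 (protease nexin-1) inhibit urokinase, whereas most clade B serpins remain inside the cell, where SERPINB1 and SERPINB6 meet the serine proteases of neutrophil granules, SERPINB8 can inhibit furin and SERPINB9 inhibits granzyme B.

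ALKBH5, the hairpin's target, was read first. It stood at 15.1 and 14.2 TPM in NOMO-1 shALKBH5 libraries, against 70.4 and 71.8 TPM in NOMO-1 shNS libraries, and at 9.45 and 7.35 TPM in MOLM-13 shALKBH5 libraries, against 45.7 and 45.8 TPM in MOLM-13 shNS libraries. TPM is the usual length-scaled share of a library's transcripts. The means were 4.86 and 5.45 times lower with the hairpin in NOMO-1 and MOLM-13 (log2 fold changes -2.21 and -2.32, limma adjusted p = 0.000316 and 0.000188), in the direction the labels give. The deposited values carry no read counts, and how deeply each library was sequenced is unknown. Of all genes, 14302 reached 1 TPM in at least 2 libraries and were tested with limma on log2(TPM + 1), at an adjusted p under 0.05; fold changes below are on that scale and understate those of low genes. Among genes averaging 10 TPM or more in a group, the log2 difference between the 2 libraries of a group had an SD of 0.16 in NOMO-1 shALKBH5, 0.11 in NOMO-1 shNS, 0.64 in MOLM-13 shALKBH5 and 0.15 in MOLM-13 shNS. The MOLM-13 shALKBH5 libraries therefore stood apart from each other, and interferon-stimulated genes did so too: the median of 21 such genes was 3.38 log2 units above the MOLM-13 shNS mean in replicate 1 and 0.73 below it in replicate 3 (log2 difference -0.73). The spread of each gene was pooled over the 4 groups, so p-values can be too large in NOMO-1 and too small in MOLM-13. Each line was also fitted alone, with fewer libraries for the spread. NOMO-1 alone gave 5890 genes higher and 3233 lower (4097 and 2145 pooled). MOLM-13 alone gave 384 and 1300 (1513 and 4459 pooled), so the shares of all genes called rest on the pooling too. MOLM-13 results are given with and without each of its shALKBH5 libraries where that matters. In any fit without a library, its group keeps a single library that adds nothing to the spread, which then rests on the other groups. Scaling by the median of ratios lowered the median log2 fold change of all genes by 0.158 in NOMO-1 (shift -0.158) and raised it by 0.209 in MOLM-13, and the genes called higher and lower numbered 3391 and 3716 in NOMO-1 (4097 and 2145 by TPM) and 3453 and 3769 in MOLM-13 (1513 and 4459 by TPM).

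Some myeloid markers differed with the knockdown. Of 13, 4 rose and 3 fell in NOMO-1 (28.6% and 15.0% of all genes tested), and 4 rose and 2 fell in MOLM-13 (10.6% and 31.2% of all). SPI1 stood at 120.2 to 377 TPM over the 8 libraries. CD33, at 65.3 to 129 TPM, was called lower in NOMO-1 (log2 fold change -0.29, limma adjusted p = 0.0422) and higher in MOLM-13 (0.46, adjusted p = 0.00937). CEBPA and FCGR1A were also lower in NOMO-1 (-0.32 and -0.34, limma adjusted p = 0.0219 and 0.0245), and ITGAM was lower in MOLM-13 (-0.59, adjusted p = 0.0478). Each of these falls was lost when 1 of several libraries was left out. CSF3R rose in NOMO-1 (0.76, limma adjusted p = 0.00142). CD68, a lysosomal protein of macrophages, rose in NOMO-1 (1054 and 1002 TPM in shALKBH5, against 326 and 320.4 TPM in shNS; log2 fold change 1.67, limma adjusted p = 0.000316) and in MOLM-13 (255 and 297 TPM against 146 and 145 TPM; 0.92, adjusted p = 0.0012). LYZ, lysozyme, rose in NOMO-1 (1532 and 1507 TPM in shALKBH5, against 463 and 499.9 TPM in shNS; 1.66, adjusted p = 0.00165) and in MOLM-13 (19263 and 12121 TPM against 9126 and 8493 TPM; 0.80, adjusted p = 0.0241). MPO, a granule gene, was at 0.31 and 0.48 TPM in NOMO-1 shALKBH5, against 0.25 and 0.07 TPM in NOMO-1 shNS, and fell in MOLM-13 (19.3 and 16.4 TPM in shALKBH5, against 384 and 456.5 TPM in shNS; -4.48, adjusted p = 0.000106). The monocyte marker CD14 was low in NOMO-1, at 0.15 to 0.44 TPM. CSF1R, another, was low there too but rose (7.99 and 6.78 TPM in shALKBH5, against 3.12 and 3.11 TPM in shNS, log2 fold change 1.02, limma adjusted p = 0.031). In MOLM-13 CSF1R did not pass (83.0 and 42.1 TPM in shALKBH5, against 32.35 and 34.4 TPM in shNS, 0.81, limma adjusted p = 0.0675). The part of these differences in the results below was not tested.

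Among the markers of other cell types, 8 of 12 lymphoid, 10 of 12 fibroblast and endothelial, 6 of 9 epithelial and 8 of 11 megakaryocyte and erythroid genes stayed under 1 TPM in every library. MS4A1, COL3A1, CDH5, EPCAM, PF4 and HBA1 were listed at 0 in all of them. Others of these lists were present: NKG7 stood at 309 and 328 TPM in NOMO-1 shALKBH5, against 377 and 368 TPM in NOMO-1 shNS, and at 74.7 and 83.97 TPM in MOLM-13 shALKBH5, against 59.2 and 61.6 TPM in MOLM-13 shNS, where it was called higher (log2 fold change 0.39, limma adjusted p = 0.0194; 0.0531 to 0.125 with any 1 of the 4 shNS libraries left out). CD2 rose in NOMO-1 (8.63 and 7.14 TPM in shALKBH5, against 2.76 and 2.36 TPM in shNS; 1.32, limma adjusted p = 0.00126). PECAM1 was at 46.2 to 101 TPM over all libraries and CLDN5 at 13.05 to 14.6 TPM in NOMO-1, with no knockdown call in either line. The megakaryocyte and erythroid list summed to 12.9 and 23.69 TPM in MOLM-13 shALKBH5 libraries, against 5.41 and 4.88 TPM in MOLM-13 shNS libraries. In NOMO-1 it summed to 9.03 and 9.32 TPM in shALKBH5, against 5.8 and 3.92 TPM in shNS. GP1BA, the 1 gene of that list tested, rose in NOMO-1 (log2 fold change 1.02, limma adjusted p = 0.00573) and in MOLM-13 (1.05, adjusted p = 0.00594). HBB was at 14.03 TPM in MOLM-13 shALKBH5 replicate 3 and listed at 0 elsewhere. The part of these differences in the results was not tested. These are bulk libraries, in which fewer cells expressing a gene and less RNA per cell cannot be told apart.

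By position on GRCh38 (GENCODE v29), the clade B members lie in 2 clusters. SERPINB2 (chr18:63871692-63903890, plus strand) and SERPINB8 (chr18:63969925-64019779, plus strand) belong to a run of 10 SERPINB genes over 543.0 kb of chromosome 18. SERPINB1 (chr6:2832332-2842006), SERPINB9 (chr6:2887266-2903280) and SERPINB6 (chr6:2948159-2972165) lie side by side on the minus strand of chromosome 6, within 139.8 kb. PLAU (chr10:73909177-73917497, plus strand), PLAUR (chr19:43646095-43670547, minus strand) and SERPINE2 (chr2:223975112-224039319, minus strand) lie apart from them.

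Promoters, taken as the 250 bases before an annotated RefSeq start (GRCh38.p14), were found for 8 of the 9 genes; 1 start per gene was used, the nearest to GENCODE's principal start. They are shown for SERPINB2 (chr18:63887455-63887704, plus strand) and SERPINB8 (chr18:63969831-63970080, plus strand), both of the chromosome 18 cluster, and for PLAU (chr10:73910882-73911131, plus strand) and PLAUR (chr19:43670170-43670419, minus strand), the ligand and receptor pair. Each reads 5′ to 3′ on the gene's strand up to the base before the start, and capitals mark matches on either strand to the AP-1 letters TGANTCA, the TATA-box letters TATAAA and the GC-box letters GGGCGG.
SERPINB2: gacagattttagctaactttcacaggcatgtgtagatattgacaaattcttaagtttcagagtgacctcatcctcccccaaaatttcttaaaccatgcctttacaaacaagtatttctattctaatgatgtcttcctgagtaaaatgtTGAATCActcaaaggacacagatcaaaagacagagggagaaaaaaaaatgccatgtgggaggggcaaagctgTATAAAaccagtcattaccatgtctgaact
SERPINB8: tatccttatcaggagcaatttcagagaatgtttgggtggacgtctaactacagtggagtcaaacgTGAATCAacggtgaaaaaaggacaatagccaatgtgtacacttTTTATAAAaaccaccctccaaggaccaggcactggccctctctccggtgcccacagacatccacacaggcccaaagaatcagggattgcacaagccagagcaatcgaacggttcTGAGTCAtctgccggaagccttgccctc
PLAU: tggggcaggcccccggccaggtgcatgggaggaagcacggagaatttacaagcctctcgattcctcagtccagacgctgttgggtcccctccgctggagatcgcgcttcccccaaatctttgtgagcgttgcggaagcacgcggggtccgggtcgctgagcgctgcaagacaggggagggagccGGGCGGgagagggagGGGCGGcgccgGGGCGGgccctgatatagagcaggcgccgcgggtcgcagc
PLAUR: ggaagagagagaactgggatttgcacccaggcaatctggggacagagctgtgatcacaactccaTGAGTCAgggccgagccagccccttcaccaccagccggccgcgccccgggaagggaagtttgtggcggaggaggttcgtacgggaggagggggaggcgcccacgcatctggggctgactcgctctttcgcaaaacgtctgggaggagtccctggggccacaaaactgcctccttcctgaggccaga
The SERPINB2 promoter held an AP-1 match starting at -102 and a TATA match at -30, counted from the start. SERPINB8 held AP-1 matches at -185 and -28, with TATA matches on both strands that overlap near -142, PLAUR held an AP-1 match at -186, and PLAU held no AP-1 match but GC boxes at -66, -51 and -40. AP-1 letters were thus present in 3 of the 8 promoters, against 6.57% of 35116 RefSeq promoters of the same length. TATA letters were in 3 of 8, against 10.72% of all, GC-box letters in 5 of 8, against 42.64%, and CCAAT in 2 of 8, against 32.01%. The E-box letters CACGTG were in 0 of the 8 windows and in 6.34% of all promoters. A match says only that the letters are there.

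With ALKBH5 knockdown, SERPINB8 rose in both lines. In NOMO-1, SERPINB1 also rose and SERPINB2 and SERPINE2 fell; in MOLM-13, PLAU also rose, SERPINB2 was higher in both knockdown libraries than in both control libraries, and none fell. Of the 9 genes, 7 were tested; PLAT and SERPINB9 stayed under 1 TPM in every library and were not. In NOMO-1, 2 of the 7 were called higher, against 28.6% of all genes tested, and 2 lower, against 15.0%, and 3 did not pass. In MOLM-13, SERPINB2 is left out of the count, since the set was in part chosen for its rise. Of the other 6 tested, 2 were called higher, against 10.6% of all genes, and 0 lower, against 31.2%, and 4 did not pass. The median log2 fold change of the 7 was 0.10 in NOMO-1, where that of all genes was 0.16. No median is given for MOLM-13, because SERPINB2, whose rise there took part in the choice, would enter it.

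**Figure D1:**
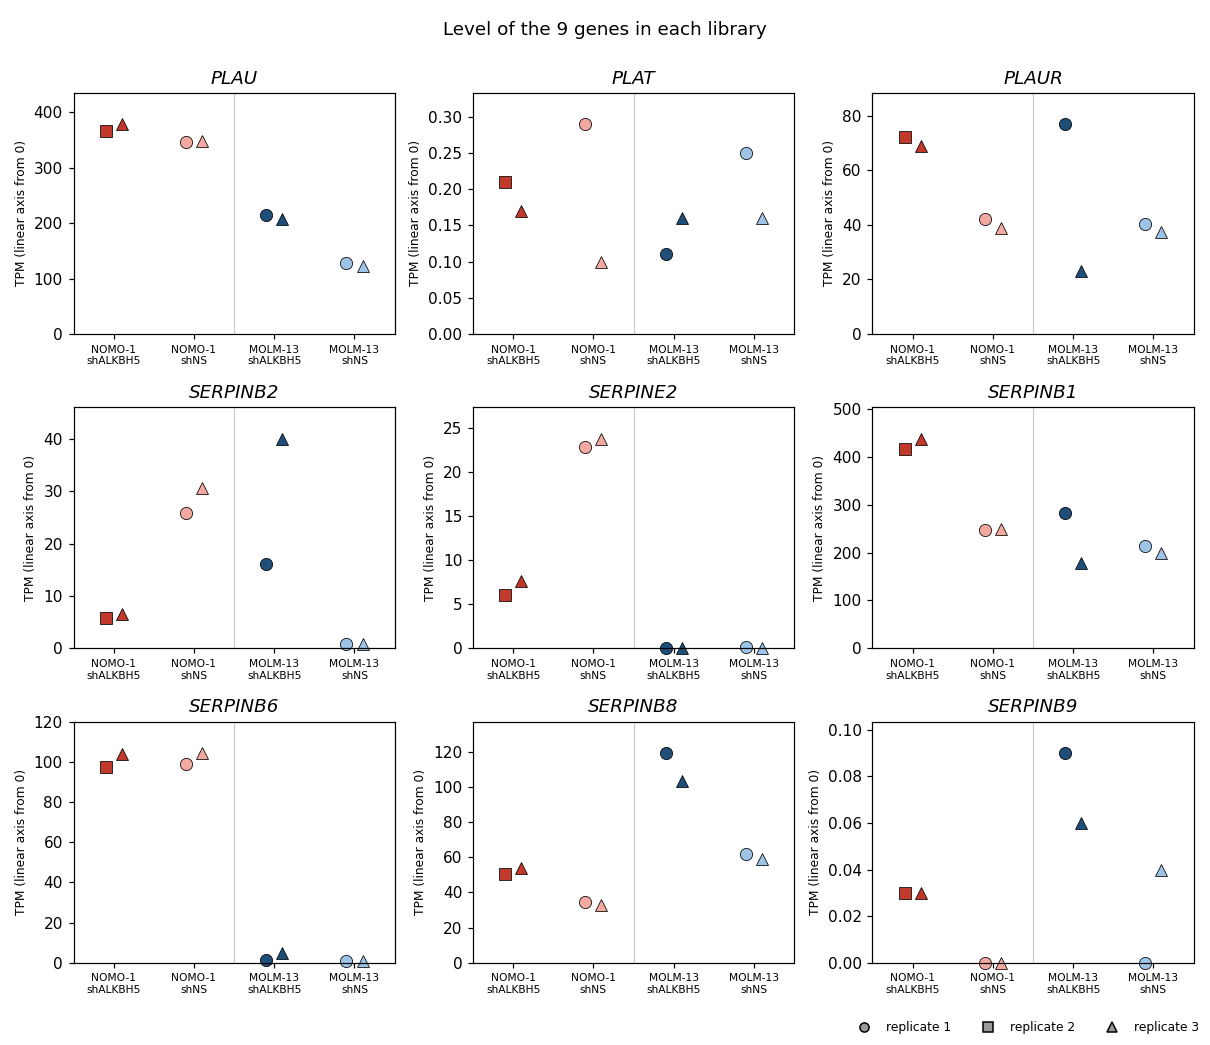
Level of each of the 9 genes in each library, in TPM on linear axes from 0, with the hairpin group left of its control in each line; point shapes give the replicate number. SERPINB2 stands at 5.88 and 6.54 TPM in NOMO-1 shALKBH5 and 25.9 and 30.6 TPM in NOMO-1 shNS, but at 16.0 and 40.1 TPM in MOLM-13 shALKBH5 and 0.83 and 0.76 TPM in MOLM-13 shNS.

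PLAU, which encodes urokinase, was the most abundant of the activator genes. It stood at 367 and 379 TPM in NOMO-1 shALKBH5 libraries, against 347 and 348 TPM in NOMO-1 shNS libraries, and at 215 and 207 TPM in MOLM-13 shALKBH5 libraries, against 128 and 123 TPM in MOLM-13 shNS libraries. The groups did not overlap in either line, but the gap was small in NOMO-1. PLAU rose in MOLM-13, 1.68 times by the means (log2 fold change 0.75, SE 0.08, limma adjusted p = 0.00116). In NOMO-1 its log2 fold change of 0.10 (95% interval -0.09 to 0.30) did not pass (limma adjusted p = 0.359); it turned to -0.12 under median-of-ratios scaling, also not past. The knockdown effect was 0.65 log2 units smaller in NOMO-1 than in MOLM-13 (difference -0.65, limma adjusted p = 0.00986); leaving out any of the 4 shNS libraries in turn ended that call, with adjusted p of at most 0.0587. Between the control lines PLAU was 2.77 times higher in NOMO-1 than in MOLM-13 (log2 difference 1.46, limma adjusted p = 1.95e-05). PLAU shares 916 exon bases with C10orf55 on the opposite strand, which stood at 2.28 to 4.39 TPM; the strand setting of the counting is not given in the sources used here.

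PLAUR, which encodes the urokinase receptor, had a MOLM-13 value whose direction depended on which knockdown library was kept. It stood at 72.3 and 68.9 TPM in NOMO-1 shALKBH5 libraries, against 42.0 and 38.8 TPM in NOMO-1 shNS libraries, and at 76.9 and 23.05 TPM in MOLM-13 shALKBH5 libraries, against 40.4 and 37.5 TPM in MOLM-13 shNS libraries. In NOMO-1 both knockdown libraries lay above both controls; in MOLM-13 replicate 1 of the knockdown lay above the controls and replicate 3 below. Neither fold change passed: 0.79 in NOMO-1 (95% interval -0.39 to 1.97, limma adjusted p = 0.239) and 0.12 in MOLM-13 (95% interval -1.06 to 1.30, adjusted p = 0.882). The NOMO-1 rise passed where the MOLM-13 libraries did not enter the spread (NOMO-1 alone, limma adjusted p = 0.00266). In MOLM-13 the log2 fold change was -0.73 without shALKBH5 replicate 1 and 0.97 without replicate 3. Between the control lines the log2 difference of 0.05 (95% interval -1.13 to 1.23) did not pass (limma adjusted p = 0.936).

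PLAT, which encodes tissue plasminogen activator and lies on chr8:42175233-42207724 (minus strand), was near 0 throughout. It was listed at 0.21 and 0.17 TPM in NOMO-1 shALKBH5 libraries, against 0.29 and 0.10 TPM in NOMO-1 shNS libraries, and at 0.11 and 0.16 TPM in MOLM-13 shALKBH5 libraries, against 0.25 and 0.16 TPM in MOLM-13 shNS libraries. The groups overlapped or touched in both lines. PLG, the gene of plasminogen itself, which is made mainly by the liver, was at 0.10 to 0.33 TPM in all 8 libraries.

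SERPINB2, an inhibitor of urokinase that is strongly inducible in monocytes and macrophages, lay on opposite sides of its controls in the 2 lines. It stood at 5.88 and 6.54 TPM in NOMO-1 shALKBH5 libraries, against 25.9 and 30.6 TPM in NOMO-1 shNS libraries, and at 16.0 and 40.1 TPM in MOLM-13 shALKBH5 libraries, against 0.83 and 0.76 TPM in MOLM-13 shNS libraries. The groups did not overlap in either line, and the knockdown pairs of the 2 lines did not overlap each other. In NOMO-1 it fell to a mean 4.54 times lower with the hairpin (log2 fold change -2.02, SE 0.38, limma adjusted p = 0.00688); without NOMO-1 shALKBH5 replicate 2 the adjusted p was 0.0509. In MOLM-13 its mean was 35.3 times higher in the knockdown (log2 fold change 3.88), a value that took part in choosing the genes and is given with no test. It was 3.25 without MOLM-13 shALKBH5 replicate 3 and 4.52 without replicate 1, so the library with the low interferon-stimulated genes had the higher SERPINB2. Control NOMO-1 cells held 35.5 times as much SERPINB2 as control MOLM-13 cells by the means. SERPINB2 and SERPINB10 share 547 exon bases on the same strand, and 23.7% of the 50-base stretches of the longest SERPINB2 transcript also occur in SERPINB10 transcripts, so reads may be split between them and both values are uncertain to that extent.

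SERPINE2, which encodes protease nexin-1, an inhibitor of thrombin and urokinase, was a NOMO-1 transcript. It stood at 6.04 and 7.66 TPM in NOMO-1 shALKBH5 libraries, against 22.8 and 23.8 TPM in NOMO-1 shNS libraries. In MOLM-13 it was listed at 0.08 and 0.08 TPM in shALKBH5 libraries, against 0.12 and 0.08 TPM in shNS libraries, close to 0 in each. It fell in NOMO-1 to a mean 3.40 times lower with the hairpin (log2 fold change -1.64, SE 0.13, limma adjusted p = 0.000458), and the call held in each of the 17 alternatives run on that comparison. SERPINE2 was near 0 in control MOLM-13, so the difference of -1.61 between the lines (limma adjusted p = 0.00329) sets a fall beside a gene listed close to 0. Between control lines the log2 difference was 4.47 in favour of NOMO-1 (limma adjusted p = 1.81e-06).

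SERPINB2 and SERPINE2 were also read against PLAU, whose product both inhibit, within each library, which is free of any scaling between libraries. Together they came to 11.9 and 14.2 TPM in NOMO-1 shALKBH5 libraries, against 48.7 and 54.3 TPM in NOMO-1 shNS libraries, and to 16.1 and 40.15 TPM in MOLM-13 shALKBH5 libraries, against 0.95 and 0.84 TPM in MOLM-13 shNS libraries. PLAU transcripts per transcript of these inhibitors were 30.8 and 26.7 in NOMO-1 shALKBH5, against 7.12 and 6.41 in NOMO-1 shNS. The same ratio was 13.35 and 5.16 in MOLM-13 shALKBH5, against 135 and 146 in MOLM-13 shNS. The ratio was thus higher with the hairpin in NOMO-1 and lower with it in MOLM-13, in every library, and the part of SERPINB2 in it makes this a restatement of that gene in MOLM-13. PLAU over PLAUR was 5.07 and 5.50 in NOMO-1 shALKBH5, against 8.26 and 8.97 in NOMO-1 shNS, and 2.79 and 8.98 in MOLM-13 shALKBH5, against 3.17 and 3.27 in MOLM-13 shNS, where the 2 knockdown libraries lay on either side of the controls. No test was run on these ratios; with 2 libraries against 2 an exact permutation test could not reach the threshold.

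**Figure D2:**
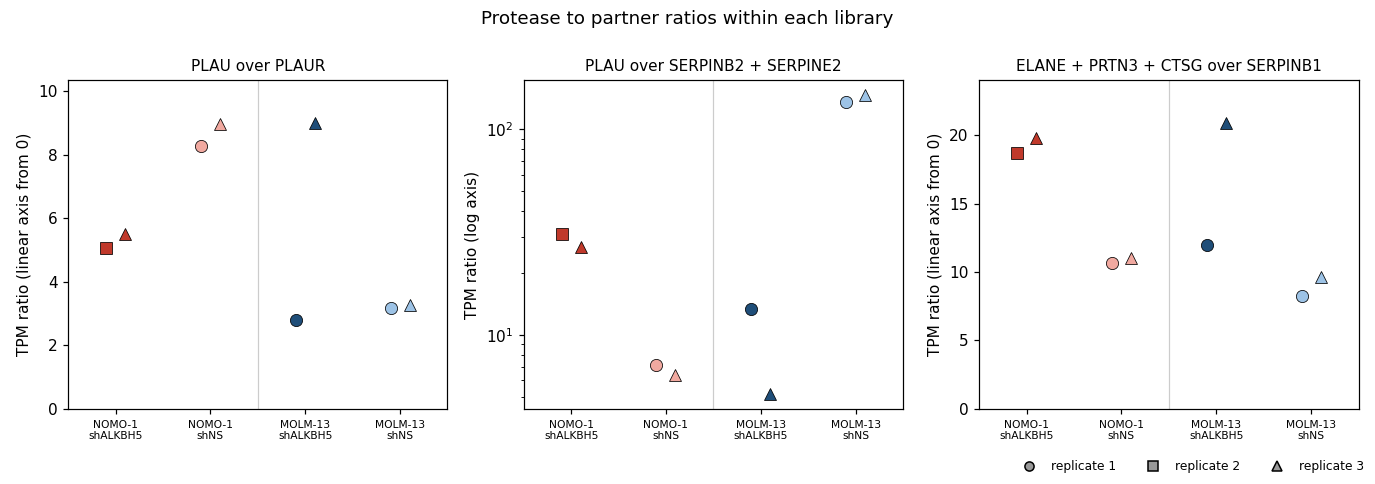
Ratios of TPM within each library: PLAU over PLAUR and the granule proteases ELANE, PRTN3 and CTSG over SERPINB1 on linear axes from 0, and PLAU over the sum of SERPINB2 and SERPINE2 on a log axis; shALKBH5 stands left of shNS in each line. PLAU over these inhibitors is 30.8 and 26.7 in NOMO-1 shALKBH5 and 7.12 and 6.41 in NOMO-1 shNS, but 13.35 and 5.16 in MOLM-13 shALKBH5 and 135 and 146 in MOLM-13 shNS.

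SERPINB1, the leukocyte elastase inhibitor, which acts on neutrophil elastase, cathepsin G and proteinase 3, was the most abundant serpin of the 6 in every library. It stood at 418 and 439 TPM in NOMO-1 shALKBH5 libraries, against 248 and 249.9 TPM in NOMO-1 shNS libraries, and at 284 and 179 TPM in MOLM-13 shALKBH5 libraries, against 215 and 199 TPM in MOLM-13 shNS libraries. NOMO-1 groups did not overlap, whereas the MOLM-13 knockdown libraries lay on either side of the controls. SERPINB1 rose in NOMO-1, 1.72 times by the means (log2 fold change 0.78, SE 0.20, limma adjusted p = 0.0232), although leaving out any NOMO-1 library in turn gave adjusted p of 0.0944 to 0.109. In MOLM-13 the log2 fold change of 0.13 (95% interval -0.37 to 0.62) did not pass (limma adjusted p = 0.663). It was -0.20 without shALKBH5 replicate 1 and 0.46 without replicate 3, and it passed at 0.42 under median-of-ratios scaling (limma adjusted p = 0.0145). As a share of the TPM of the 6 serpins, SERPINB1 made up 72.3% and 71.9% in NOMO-1 shALKBH5, against 57.6% and 56.6% in NOMO-1 shNS, and 67.5% and 54.8% in MOLM-13 shALKBH5, against 77.1% and 76.6% in MOLM-13 shNS.

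SERPINB6, a cytoplasmic inhibitor of cathepsin G and thrombin, marked the line more than the knockdown. It stood at 97.5 and 104 TPM in NOMO-1 shALKBH5 libraries, against 99.2 and 104 TPM in NOMO-1 shNS libraries, and at 1.23 and 4.69 TPM in MOLM-13 shALKBH5 libraries, against 0.92 and 0.88 TPM in MOLM-13 shNS libraries. Control NOMO-1 held 113 times the control MOLM-13 level by the means (log2 difference 5.76, limma adjusted p = 4.77e-05). The knockdown fold change was -0.02 in NOMO-1 (95% interval -0.97 to 0.93, limma adjusted p = 0.995) and 0.91 in MOLM-13 (95% interval -0.04 to 1.86, adjusted p = 0.111). In MOLM-13 both knockdown libraries exceeded both controls but by unequal amounts: the log2 fold change was 1.58 without shALKBH5 replicate 1 and 0.23 without replicate 3.

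SERPINB8, which can inhibit furin, was the member with the same call in both lines. It stood at 50.7 and 53.7 TPM in NOMO-1 shALKBH5 libraries, against 34.4 and 32.6 TPM in NOMO-1 shNS libraries, and at 119 and 103 TPM in MOLM-13 shALKBH5 libraries, against 62.05 and 58.9 TPM in MOLM-13 shNS libraries. The groups did not overlap in either line. SERPINB8 rose 1.56 times in NOMO-1 (log2 fold change 0.62, SE 0.11, limma adjusted p = 0.00463) and 1.84 times in MOLM-13 (0.86, SE 0.11, adjusted p = 0.00171), and each call held in the 17 alternatives run on it. The difference between these effects was -0.24 (limma adjusted p = 0.249); it passed with median-of-ratios scaling (-0.75, adjusted p = 0.00476) and with quantile normalization (-0.65, adjusted p = 0.00632). It was also the tested member with a lower level in control NOMO-1 than in control MOLM-13 (log2 difference -0.83, limma adjusted p = 0.000715). SERPINB8 shares 370 exon bases and 9.42% of its 50-base stretches with HMSD, which was listed at 0 in all libraries.

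SERPINB9, the granzyme B inhibitor of cytotoxic lymphocytes and dendritic cells, was listed at 0.03 and 0.03 TPM in NOMO-1 shALKBH5 libraries, against 0 and 0 in NOMO-1 shNS libraries, and at 0.09 and 0.06 TPM in MOLM-13 shALKBH5 libraries, against 0 and 0.04 TPM in MOLM-13 shNS libraries. No fold is given at these levels. Its neighbour SERPINB1 on chromosome 6 stood at 179 to 439 TPM in the same libraries.

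**Figure D3:**
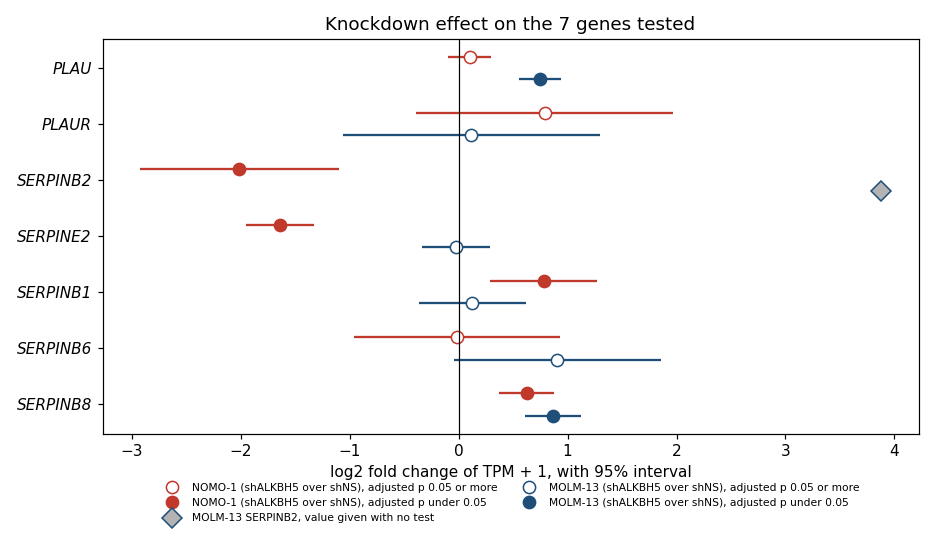
Log2 fold change of TPM + 1, shALKBH5 over shNS, for the 7 genes tested, with 95% intervals from limma; red is NOMO-1, blue is MOLM-13, and filled points have an adjusted p under 0.05. SERPINB8 lies to the right of 0 in both lines (0.62 and 0.86), SERPINE2 to the left in NOMO-1 (-1.64), and the grey diamond, SERPINB2 in MOLM-13 at 3.88, is shown with no test.

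The shNS controls of the 2 lines differed for some of these genes, at close to the share of all genes called. Leaving aside SERPINB2, whose MOLM-13 values carry no test here, 3 of 6 genes were called higher and 1 lower in control NOMO-1 than in control MOLM-13, against 59.8% of all genes called in either direction, and PLAUR and SERPINB1 did not pass (SERPINB1 log2 difference 0.27, limma adjusted p = 0.299). By level, control NOMO-1 ran PLAU, SERPINB1, SERPINB6, PLAUR, SERPINB8, SERPINB2, SERPINE2, PLAT and SERPINB9 from high to low, in which SERPINB2 and SERPINE2 lay next to each other at 25.9 and 30.6 TPM and at 22.8 and 23.8 TPM. Control MOLM-13 ran SERPINB1, PLAU, SERPINB8, PLAUR, SERPINB6, SERPINB2, PLAT, SERPINE2 and SERPINB9; there SERPINB6 and SERPINB2 were both under 1 TPM. In neither order did the 2 values of a gene overlap those of its neighbours, but the genes under 1 TPM are too low to be ranked firmly. The 9 genes together came to 1017 and 1058 TPM in NOMO-1 shALKBH5, against 819.5 and 828 TPM in NOMO-1 shNS, and to 713 and 558 TPM in MOLM-13 shALKBH5, against 448 and 419.9 TPM in MOLM-13 shNS. Leaving SERPINB2 aside, the knockdown effects themselves differed between lines for 2 of 6 genes, PLAU and SERPINE2, each with a negative difference, against 34.6% of all genes in either direction.

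In the chromosome 18 cluster, transcripts came from the SERPINB2 end. SERPINB5, SERPINB12, SERPINB13, SERPINB4, SERPINB11, SERPINB3 and SERPINB7, the 7 genes on the SERPINB5 side of SERPINB2, were at 0.25 TPM or less in every library. SERPINB10, between SERPINB2 and SERPINB8, stood at 2.48 and 3.52 TPM in NOMO-1 shALKBH5 libraries, against 7.68 and 7.34 TPM in NOMO-1 shNS libraries, and at 1.99 and 2.53 TPM in MOLM-13 shALKBH5 libraries, against 2.03 and 1.87 TPM in MOLM-13 shNS libraries. It fell in NOMO-1 (log2 fold change -1.10, limma adjusted p = 0.00272), as SERPINB2 did, and gave 0.14 in MOLM-13 (adjusted p = 0.529), while SERPINB8 rose in both. SERPINB10 was the 1 gene tested among the 8 other clade B serpins.

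**Figure D4:**
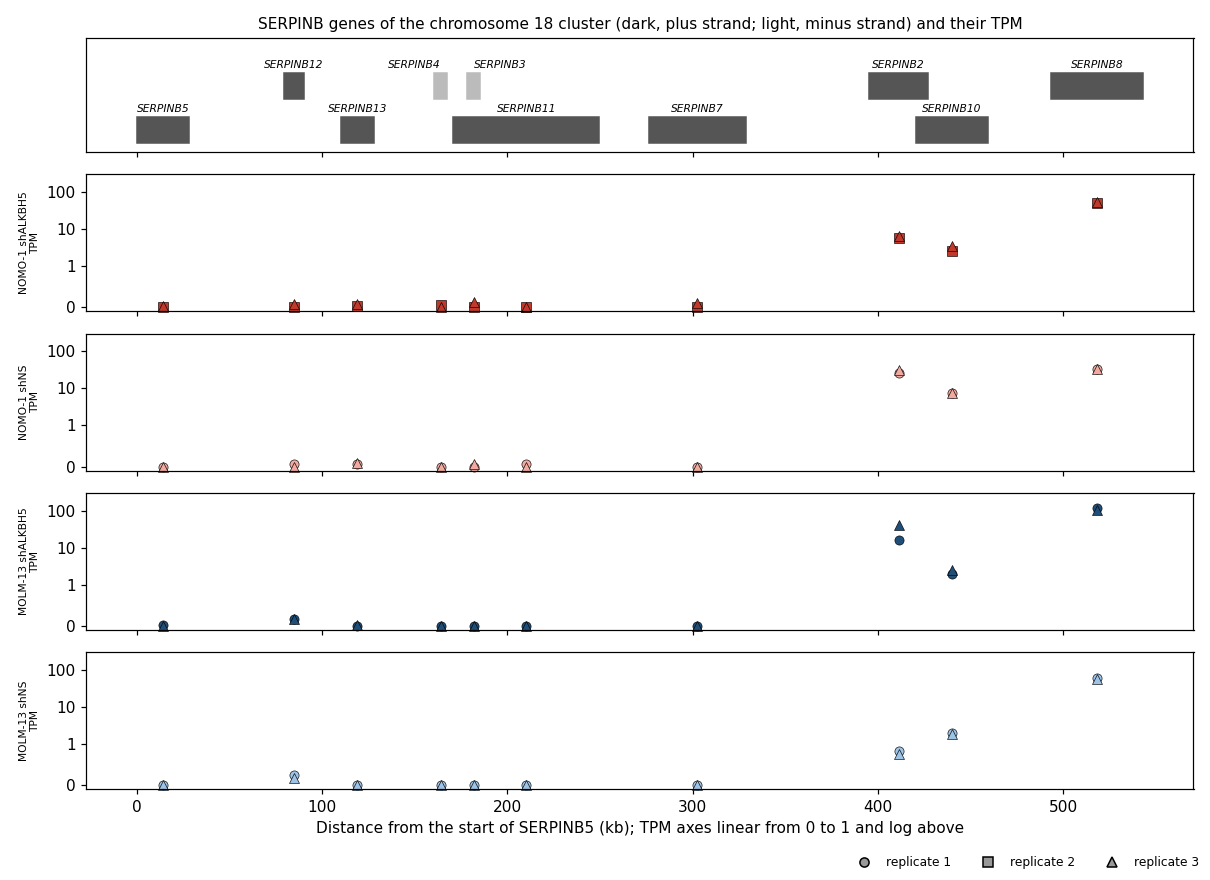
SERPINB genes of the chromosome 18 cluster drawn to scale by distance from the start of SERPINB5 in kb, with the TPM of each gene in each library below, 1 panel per group; TPM axes are linear from 0 to 1 and logarithmic above. SERPINB2, SERPINB10 and SERPINB8 carry the signal, and the other 7 genes are at 0.25 TPM or less.

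ALKBH5 acts on m6A, which is placed in short sequence contexts of which GGACT is a common spelling. Counts of these letters in the longest annotated transcript were 2.26 per kb in PLAU (6 matches), above 93.7% of 19652 genes, 1.44 in SERPINB8, 1.21 in SERPINB9, 1.145 in SERPINB1, 0.74 in PLAT, 0.62 in PLAUR and 0.36 in SERPINB6, where the median gene had 0.93. SERPINB2 and SERPINE2 held none. The series measures no m6A, and a match shows only that the letters are present.

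Beyond these 9, other genes of the plasminogen system moved in both directions. Of 33 further genes (receptors, binding proteins and regulators of plasminogen, listed with earlier results known), 25 were tested: 6 rose and 6 fell in NOMO-1 (median log2 fold change 0.07), and 6 rose and 5 fell in MOLM-13 (median -0.05), against medians of 0.16 and -0.18 for all genes. The shares of all genes called higher and lower were 28.6% and 15.0% in NOMO-1 and 10.6% and 31.2% in MOLM-13. With median-of-ratios scaling the split was 4 higher and 8 lower in NOMO-1 and 7 higher and 2 lower in MOLM-13. So scaled, 3391 and 3716 of all 14302 genes were called higher and lower in NOMO-1, and 3453 and 3769 in MOLM-13. In NOMO-1, LRPAP1, the chaperone of the receptors that clear urokinase with its inhibitors, rose (121 and 118 TPM in shALKBH5, against 59.9 and 60.9 TPM in shNS; log2 fold change 0.98, limma adjusted p = 0.000531), and CPB2, a carboxypeptidase that slows fibrin breakdown, rose (6.06 and 6.05 TPM against 1.91 and 1.30 TPM; 1.45, adjusted p = 0.000905). MRC2, a collagen receptor that associates with uPAR, fell (20.5 and 24.65 TPM in shALKBH5, against 56.4 and 58.8 TPM in shNS; -1.32, adjusted p = 0.00073), as did FPR2, a chemotactic receptor that recognises cleaved uPAR (8.85 and 11.9 TPM against 34.4 and 33.8 TPM; -1.64, adjusted p = 0.00176). In MOLM-13, ITGA5, the fibronectin receptor subunit, rose (103 and 101 TPM in shALKBH5, against 48.0 and 52.0 TPM in shNS; 1.01, adjusted p = 0.000615), and so did THBD, or thrombomodulin (88.3 and 92.45 TPM against 54.9 and 53.6 TPM; 0.73, adjusted p = 0.00214). VLDLR, a clearance receptor, fell there (12.3 and 13.55 TPM in shALKBH5, against 28.1 and 27.4 TPM in shNS, log2 fold change -1.05, limma adjusted p = 0.000716). LRPAP1 was also called higher in MOLM-13 (0.34, limma adjusted p = 0.0177), and ITGA5 in NOMO-1 (0.48, adjusted p = 0.0065). Each of these further calls was lost under some alternative settings.

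Annexin A2 and S100A10, which form a plasminogen-binding complex, went opposite ways in both lines. S100A10 fell in MOLM-13 (76.5 and 54.5 TPM in shALKBH5, against 159 and 154 TPM in shNS; log2 fold change -1.26, limma adjusted p = 0.00271) and in NOMO-1 (63.8 and 52.5 TPM against 98.9 and 96.2 TPM; -0.74, adjusted p = 0.0161). ANXA2, named here after its values were seen, rose in NOMO-1 (1101 and 1058 TPM in shALKBH5, against 521 and 502 TPM in shNS; 1.07, adjusted p = 0.00867) and in MOLM-13 (223 and 137 TPM against 92.0 and 97.6 TPM; 0.88, adjusted p = 0.0194). ANXA2 has processed pseudogenes that can share its reads. Leaving out 1 of several libraries ended 3 of these calls: S100A10 in NOMO-1 (adjusted p up to 0.0974), ANXA2 in NOMO-1 (up to 0.0591) and ANXA2 in MOLM-13 (up to 0.104).

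Of 20 further serpins outside clade B, 6 were tested; 2 rose and 0 fell in NOMO-1, and 1 rose and 1 fell in MOLM-13, and with median-of-ratios scaling the NOMO-1 count was 1. By TPM, 28.6% of all genes rose and 15.0% fell in NOMO-1, and 10.6% rose and 31.2% fell in MOLM-13. With that scaling, 3391 and 3716 of all 14302 genes were called higher and lower in NOMO-1. SERPINI1, or neuroserpin, which inhibits tPA, rose in NOMO-1 (20.1 and 20.4 TPM in shALKBH5, against 5.03 and 5.45 TPM in shNS; log2 fold change 1.77, limma adjusted p = 0.00101) and fell in MOLM-13 (1.18 and 0.48 TPM against 3.19 and 2.79 TPM; -1.15, adjusted p = 0.00498). AGT, the serpin precursor of angiotensin, rose in MOLM-13 (8.44 and 19.3 TPM in shALKBH5, against 1.39 and 1.23 TPM in shNS, log2 fold change 2.58, limma adjusted p = 0.00224). It was also called higher in NOMO-1 (1.18, limma adjusted p = 0.0319), a call lost with median-of-ratios scaling (0.97, adjusted p = 0.119).

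The granule proteases that clade B serpins inhibit were, in sum, more abundant than SERPINB1 in every library. Of 26 listed target proteases 18 were tested. By TPM, 7 rose and 0 fell in NOMO-1, and 4 rose and 3 fell in MOLM-13. The shares of all genes were 28.6% and 15.0% in NOMO-1 and 10.6% and 31.2% in MOLM-13. With median-of-ratios scaling 5 rose and 3 fell in NOMO-1, and 4 rose and 2 fell in MOLM-13. So scaled, 3391 and 3716 of all 14302 genes were called higher and lower in NOMO-1, and 3453 and 3769 in MOLM-13. CTSG, cathepsin G, rose in NOMO-1 (5525 and 6170.05 TPM in shALKBH5, against 1765 and 1789 TPM in shNS; log2 fold change 1.72, limma adjusted p = 0.000429) and fell in MOLM-13 (273 and 345 TPM against 516 and 529 TPM; -0.77, adjusted p = 0.00539; 0.122 with median-of-ratios scaling). ELANE, neutrophil elastase, rose in NOMO-1 (1822 and 1970.21 TPM in shALKBH5, against 667 and 705 TPM in shNS; 1.47, adjusted p = 0.00044) and in MOLM-13 (1482 and 1699.8 TPM against 697 and 783 TPM; 1.10, adjusted p = 0.000963). PRTN3, proteinase 3, rose in MOLM-13 (1638 and 1702 TPM in shALKBH5, against 556 and 608 TPM in shNS, log2 fold change 1.52, limma adjusted p = 0.000515). It also rose in NOMO-1 (463 and 530 TPM in shALKBH5, against 220 and 265 TPM in shNS, log2 fold change 1.03, limma adjusted p = 0.00151). PRSS57, another neutrophil serine protease, fell in MOLM-13 (116 and 144 TPM in shALKBH5, against 232 and 266 TPM in shNS; -0.94, adjusted p = 0.00404; 0.0506 so scaled) and rose in NOMO-1, where it was low (3.73 and 3.62 TPM in shALKBH5, against 0.78 and 1.07 TPM in shNS; 1.28, adjusted p = 0.00119). Set against SERPINB1 within each library, ELANE, PRTN3 and CTSG together were 18.7 and 19.8 times its TPM in NOMO-1 shALKBH5, against 10.7 and 11.04 times in NOMO-1 shNS, and 11.9 and 20.9 times in MOLM-13 shALKBH5, against 8.23 and 9.65 times in MOLM-13 shNS. This ratio was higher with the hairpin in every library of both lines. CTSG over SERPINB6 was 56.7 and 59.4 in NOMO-1 shALKBH5, against 17.8 and 17.1 in NOMO-1 shNS, and 222 and 73.5 in MOLM-13 shALKBH5, against 561 and 601 in MOLM-13 shNS, so here the lines went opposite ways.

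Of 26 matrix proteases and their regulators, 21 were tested. By TPM, 3 rose and 4 fell in NOMO-1, and 2 rose and 3 fell in MOLM-13. The shares of all genes were 28.6% and 15.0% in NOMO-1 and 10.6% and 31.2% in MOLM-13. With median-of-ratios scaling 3 rose and 8 fell in NOMO-1, and 5 rose and 2 fell in MOLM-13. So scaled, 3391 and 3716 of all 14302 genes were called higher and lower in NOMO-1, and 3453 and 3769 in MOLM-13. In NOMO-1, MMP8, the neutrophil collagenase, rose (33.2 and 29.15 TPM in shALKBH5, against 7.31 and 7.98 TPM in shNS; log2 fold change 1.89, limma adjusted p = 0.000316), and ADAM15, a membrane metalloproteinase, fell (42.6 and 46.6 TPM against 89.2 and 95.3 TPM; -1.03, adjusted p = 0.00107). MST1, a plasminogen-like growth factor with near-identical gene copies, so that its value is uncertain, rose there as well (59.0 and 61.05 TPM in shALKBH5, against 8.53 and 10.3 TPM in shNS, log2 fold change 2.56, limma adjusted p = 0.00024). MST1 was also called higher in MOLM-13 (0.52, limma adjusted p = 0.014), a call lost under some alternative settings. RECK, a membrane inhibitor of matrix metalloproteinases, fell in NOMO-1 (10.8 and 11.4 TPM in shALKBH5, against 18.6 and 19.85 TPM in shNS; -0.74, adjusted p = 0.00333) and in MOLM-13 (4.71 and 4.23 TPM against 7.74 and 6.72 TPM; -0.59, adjusted p = 0.00868), the second ended by quantile normalization (adjusted p = 0.0723) or by leaving out MOLM-13 shNS replicate 1 (0.0716). ADAM10, a sheddase, fell in MOLM-13 (47.85 and 41.0 TPM in shALKBH5, against 105 and 104 TPM in shNS; -1.22, adjusted p = 0.000496).

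Regulators known to act on PLAU, PLAUR and SERPINB2 promoters in other cells, chiefly AP-1 and ETS factors, gave 23 tested genes. By TPM, 3 were higher and 4 lower in NOMO-1, and 1 higher and 5 lower in MOLM-13. The shares of all genes were 28.6% and 15.0% in NOMO-1 and 10.6% and 31.2% in MOLM-13. With median-of-ratios scaling 4 were higher and 5 lower in MOLM-13. So scaled, 3453 and 3769 of all 14302 genes were called higher and lower there. FOSL2, an AP-1 subunit, rose in NOMO-1 (98.2 and 84.8 TPM in shALKBH5, against 35.0 and 36.7 TPM in shNS; log2 fold change 1.32, limma adjusted p = 0.00127). RELA, a subunit of NF-kB, rose there too (69.15 and 61.8 TPM against 39.4 and 39.8 TPM; 0.71, adjusted p = 0.0358), a call that ended when any of the 4 NOMO-1 or the 2 MOLM-13 shNS libraries was left out (adjusted p up to 0.169). CEBPB, a macrophage transcription factor, rose in MOLM-13 (29.2 and 31.2 TPM in shALKBH5, against 11.96 and 11.8 TPM in shNS; 1.27, adjusted p = 0.000304). ETV4, an ETS factor, fell in NOMO-1 (0.09 and 0.27 TPM in shALKBH5, against 16.5 and 16.3 TPM in shNS; -3.89, adjusted p = 0.00024) and in MOLM-13 (0.33 and 0 TPM against 6.17 and 6.72 TPM; -2.69, adjusted p = 0.000244). EGR1, an immediate-early zinc finger factor, fell in MOLM-13 (14.5 and 3.29 TPM in shALKBH5, against 152 and 141 TPM in shNS; -4.17, adjusted p = 0.00266). EGR1 also fell in NOMO-1 (5.10 and 9.61 TPM in shALKBH5, against 102 and 104 TPM in shNS, log2 fold change -3.69, limma adjusted p = 0.00353). JUN, named after its values were seen because it is the founding AP-1 subunit, was at 154 and 134 TPM in NOMO-1 shALKBH5, against 61.1 and 62.0 TPM in NOMO-1 shNS, and at 93.6 and 13.1 TPM in MOLM-13 shALKBH5, against 28.4 and 24.7 TPM in MOLM-13 shNS, and was not past the threshold in either line. In MOLM-13 its knockdown libraries thus lay on either side of the controls, with replicate 1 high, as those of PLAUR and SERPINB1 did.

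The genes whose levels ran most like each member were found by the root-mean-square distance of centred log2(TPM + 1) values over the 8 libraries, among all 14302 genes tested. Nearest to PLAU were LAMP1, STAT5A and MAPK8IP2, at 0.0693, 0.0815 and 0.09 log2 units. SERPINB1 had PRPF38A, PDCD1LG2 and GLRX at 0.0653, 0.0664 and 0.0805, SERPINB8 had LINC01176, ZNF189 and MCRIP2 at 0.076, 0.101 and 0.108, and SERPINE2 had C1orf228, LOC101927746 and CLEC5A at 0.155, 0.196 and 0.207. SERPINB2 had no close companion: its nearest were MIR3651, MIR658 and HIST1H2AM at 0.872, 0.94 and 0.968, against its own range of 4.54 log2 units. With 8 libraries in 4 groups, such likeness is a description of these libraries.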

How the data were processed

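Poly(A) RNA of 8 libraries in 4 groups of 2 was sequenced. A table of TPM for 26830 gene symbols was deposited by the authors, which was read as TPM because all columns have the same total. STAR and RSEM with the build GRCh38 are named in the submitters' processing notes. Their versions, the annotation and the strand setting were not given in the sources used here. No depth can be had from TPM, so no counting interval is given. Table columns were matched to samples by line, replicate number and hairpin; the shALKBH5 columns carry the letter E and were matched by elimination. The labels disagree on the treatment: the series text gives 4 days of puromycin, while the sample protocols give 1 week and mention a virus against FTO and drugs that no sample label lists. Whether the libraries of a group are separate cultures is not said; the p-values cover no more than the spread among them, which may be technical.

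Genes that reached 1 TPM in 2 or more libraries were tested with limma 3.58.1 in R 4.3.3 on log2(TPM + 1), with 4 group means over all 8 libraries (4 residual degrees of freedom), limma's moderated variance (trend on), two-sided p-values and Benjamini-Hochberg adjustment over all 14302 genes, at 0.05. Intervals are 95%. The 9 genes and 12 gene lists were chosen with earlier results of these data known. Named list genes are the 2 with the smallest p per list, direction and line that had a group mean of at least 5 TPM. Exceptions are marked, apart from PLG and from cell type markers such as LYZ, CSF1R, CD14 and SPI1, which were named outside this rule. The code was tested on simulated data. Whether MOLM-13 replicate numbers pair the libraries is not settled. The correlation of deviations was 0.06 over 14302 genes, but the wide gap between the MOLM-13 shALKBH5 libraries could hide a shared batch. Sequences are RefSeq's; 5 motifs were searched on both strands. Some genes are not reported here.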

Additional observations from a re-analysis of the deposited data

Results flagged for a closer look

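For 3 genes the knockdown effect (log2 fold change, shALKBH5 over shNS) stood apart between NOMO-1 and MOLM-13. PLAU had a difference of -0.65 (NOMO-1 minus MOLM-13, limma adjusted p = 0.00986), with 0.10 in NOMO-1 and 0.75 in MOLM-13. SERPINE2 had a difference of -1.61 (limma adjusted p = 0.00329), with -1.64 in NOMO-1 and -0.03 in MOLM-13, where it was listed at 0.08 to 0.12 TPM in all 4 libraries. SERPINB2 had a difference of -5.90, with both NOMO-1 knockdown libraries below both of their controls and both MOLM-13 knockdown libraries above theirs; this difference is given as a description with no test, because the rise in MOLM-13 was known when the genes were chosen.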

How the results depend on the processing

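Knockdown results were recomputed under 17 other settings and the comparisons between lines under 16 (filter, pseudocount, scaling, fit and libraries left out). The counts below include SERPINB2, so the MOLM-13 count as reported is 3 here and 2 without that gene. Leaving out each library in turn, the number of the 7 tested genes called was 2 to 5 in NOMO-1 (4 as reported), 3 to 6 in MOLM-13 (3 as reported), 2 to 6 for the difference between lines (3 as reported) and 5 to 6 between control lines (5 as reported). The highest MOLM-13 counts came without shALKBH5 replicate 1 or replicate 3, where the remaining knockdown library added nothing to the spread. The lowest NOMO-1 count came without NOMO-1 shALKBH5 replicate 2. The MOLM-13 direction turned for PLAUR (-0.731 to 0.965) and SERPINB1 (-0.203 to 0.456), low without shALKBH5 replicate 1 and high without replicate 3. With quantile normalization, and leaving SERPINB2 aside, PLAU, SERPINE2, SERPINB1 and SERPINB8 were called for the difference between lines. There 2849 of all 14302 genes were called higher and 2253 lower, against 4946 in either direction as reported. No call of SERPINB8 in either line, SERPINE2 in NOMO-1 or PLAU in MOLM-13 was lost in the 17 alternatives run on each. The cause of these changes was not tested.

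Replicate numbers could pair libraries in MOLM-13 only, since the NOMO-1 groups share a single number, and whether they do is not settled. With a replicate block within MOLM-13, 4 of the genes were called in NOMO-1, 3 in MOLM-13, 4 for the difference between lines and 5 between control lines. Depth is unknown, so levels near 0 TPM (PLAT, SERPINB9, SERPINE2 in MOLM-13) cannot be told from 0.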
